A study of Mus musculus with 24 samples.

Results

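Telomere-proximal autosomal regions are the stretches of chromatin counted at the distal ends of 16 mouse autosomes. A region belonged to the set when its start lay within 5000000 bases (5 Mb) of the largest stop listed for its chromosome, and chromosomes 11, 13 and 19 were left out by the rule. The rule used positions alone and no read count. Tips, ends, outer bands and distances below are all taken from that largest stop, the last listed base. It can lie short of the physical end of a chromosome, so a member need not lie within 5 Mb of the telomere itself. It took 3658 of the 53386 listed regions, and the other 41161 regions of the same 16 chromosomes are called the rest below. The regions were counted in hearts of 6 C57BL6 mice aged 12 months, 3 female and 3 male, after ischemic preconditioning, a series of 4 short coronary occlusions of 5 min, each with 5 min of reperfusion, and a last reperfusion of 30 min. Dimethylation of histone H3 at lysine 9 (H3K9me2) was measured by chromatin immunoprecipitation with sequencing (ChIP-seq). Each heart gave a biopsy of the area at risk (AAR), the muscle fed by the occluded artery, and one of the remote myocardium (RM), and each biopsy gave an H3K9me2 library and a library of its input chromatin, so that 4 groups of 6 libraries were compared. All the hearts had been preconditioned, and sham hearts were not analysed here. A biopsy holds all the cell types of the muscle, and a mark on fewer cells cannot be told apart from less of the mark in each cell.

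H3K9me2 is a mark of silenced euchromatin, written mainly by the methyltransferase pair EHMT1 and EHMT2 and bound by readers such as the HP1 proteins. It is usually low at the start sites of active genes and spread at a modest level over intergenic DNA and silent genes. Mouse chromosomes carry the centromere close to one tip, so the highest coordinates of each chromosome lie on the side of the distal telomere.

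The set was spread unevenly over the chromosomes. Chromosome 4 gave 518 of its members, chromosome 7 gave 504 and chromosome 15 gave 448, against 17 for chromosome 3 and 21 for chromosome 12. Listed regions were denser in the outer 5 Mb, at 45.7 regions per Mb, than in the rest, at 20.5 per Mb, and they covered 11.6% of the span there against 5.19% in the rest. In other respects the members resembled the rest. Median width was 2600 bases in both. Regions near a gene end (within 2 kb of either end of an annotated gene) made up 40.9% of the members and of the rest, those inside a gene 44.0% of each, and intergenic ones 15.1% of each. The median number of reads per kb, summed over all 24 libraries, was 235.7 in the members and 231.2 in the rest. No read was counted in 359 members (9.81%), and they enter no test. Whole libraries held 416683 to 1196368 counts (AAR H3K9me2), 1286383 to 2478668 (AAR input), 443261 to 981763 (RM H3K9me2) and 1405503 to 1770520 (RM input) in the listed regions. Just inside the 5-Mb threshold, the innermost tested member of each chromosome had a median log2 fold change of H3K9me2 over input of 0.49 in AAR and 0.78 in RM, and the nearest tested region just outside it one of 0.32 in AAR and 0.39 in RM (16 chromosomes each).

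Of the RefSeq promoters (build GRCm38.p6, 250 bases before to 50 after a start site), 539 lie inside member regions. The letters TTAGGG, the unit of the telomere repeat, read on either strand, occurred in 43 of them (7.98%), against 10.1% of the promoters in the rest and 10.6% of all promoters in the table. The number of CG pairs differed between the promoters of members with low and with high H3K9me2. Promoters inside member regions with H3K9me2 below input in both biopsies held a median of 27.5 CG pairs in 300 bases (134 promoters in 95 regions), those in regions higher in both biopsies a median of 3 (23 promoters in 19 regions), and those in other tested members a median of 14 (262 promoters). Fewer than 10 CG pairs were found in 24 of the 134 (17.9%) and in 21 of the 23 (91.3%), against 56.5% of all RefSeq promoters in the table. Some promoters share a region, so these counts are a description. The 8 promoters below are shown because they stand in member regions called the same way in both biopsies, and each CG is in capitals. They belong to the 4 named protein-coding genes with the lowest and the 4 with the highest fold change in RM, and they were chosen with the values known. Each reads 5′ to 3′ on the strand of its gene.

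Tns2 (lower, chr15:102102684-102102983, plus strand): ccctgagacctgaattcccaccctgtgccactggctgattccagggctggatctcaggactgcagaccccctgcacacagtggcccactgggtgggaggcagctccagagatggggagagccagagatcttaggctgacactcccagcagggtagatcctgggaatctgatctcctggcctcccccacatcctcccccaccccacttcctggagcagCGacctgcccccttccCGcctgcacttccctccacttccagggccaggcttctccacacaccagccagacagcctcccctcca
Myl6 (lower, chr10:128493837-128494136, minus strand): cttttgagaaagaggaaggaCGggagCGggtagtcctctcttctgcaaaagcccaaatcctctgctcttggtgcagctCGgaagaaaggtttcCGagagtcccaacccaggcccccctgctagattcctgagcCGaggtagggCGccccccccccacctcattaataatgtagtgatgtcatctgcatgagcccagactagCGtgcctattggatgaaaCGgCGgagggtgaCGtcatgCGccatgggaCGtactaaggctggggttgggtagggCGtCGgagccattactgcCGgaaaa
Ets2 (lower, chr16:95702157-95702456, plus strand): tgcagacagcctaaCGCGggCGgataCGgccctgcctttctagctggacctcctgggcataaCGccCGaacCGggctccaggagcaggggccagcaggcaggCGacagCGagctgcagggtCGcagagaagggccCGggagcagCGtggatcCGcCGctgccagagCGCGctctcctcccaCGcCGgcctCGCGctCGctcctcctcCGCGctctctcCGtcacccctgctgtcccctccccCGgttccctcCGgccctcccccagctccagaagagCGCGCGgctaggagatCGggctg
Flt1 (lower, chr5:147725962-147726261, minus strand): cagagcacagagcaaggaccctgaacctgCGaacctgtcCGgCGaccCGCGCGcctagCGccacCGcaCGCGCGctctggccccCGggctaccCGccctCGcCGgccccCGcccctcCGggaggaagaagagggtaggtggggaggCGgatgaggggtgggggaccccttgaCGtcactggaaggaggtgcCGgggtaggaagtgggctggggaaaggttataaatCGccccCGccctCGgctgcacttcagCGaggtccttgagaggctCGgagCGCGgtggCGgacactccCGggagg
Kcnj6 (higher, chr16:94997647-94997946, minus strand): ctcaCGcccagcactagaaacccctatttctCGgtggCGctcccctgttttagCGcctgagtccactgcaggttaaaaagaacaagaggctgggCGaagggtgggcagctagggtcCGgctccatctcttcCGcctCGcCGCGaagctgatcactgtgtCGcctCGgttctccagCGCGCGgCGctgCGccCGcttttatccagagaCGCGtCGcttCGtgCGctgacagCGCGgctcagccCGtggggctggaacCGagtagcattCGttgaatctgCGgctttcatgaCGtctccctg
Oprl1 (higher, chr2:181714766-181715065, plus strand): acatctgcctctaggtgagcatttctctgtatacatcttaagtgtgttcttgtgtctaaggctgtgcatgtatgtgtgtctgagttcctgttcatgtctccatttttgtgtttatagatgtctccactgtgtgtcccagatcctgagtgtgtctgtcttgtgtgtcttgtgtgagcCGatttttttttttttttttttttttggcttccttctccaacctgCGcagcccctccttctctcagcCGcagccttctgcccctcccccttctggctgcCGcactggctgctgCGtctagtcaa
Krt75 (higher, chr15:101573855-101574154, minus strand): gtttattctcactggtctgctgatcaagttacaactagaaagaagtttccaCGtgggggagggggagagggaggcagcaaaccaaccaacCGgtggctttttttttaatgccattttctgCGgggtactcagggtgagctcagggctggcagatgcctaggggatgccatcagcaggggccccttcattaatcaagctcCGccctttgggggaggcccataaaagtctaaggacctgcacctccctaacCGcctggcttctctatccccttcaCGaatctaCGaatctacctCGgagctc
Scn11a (higher, chr9:119825407-119825706, minus strand): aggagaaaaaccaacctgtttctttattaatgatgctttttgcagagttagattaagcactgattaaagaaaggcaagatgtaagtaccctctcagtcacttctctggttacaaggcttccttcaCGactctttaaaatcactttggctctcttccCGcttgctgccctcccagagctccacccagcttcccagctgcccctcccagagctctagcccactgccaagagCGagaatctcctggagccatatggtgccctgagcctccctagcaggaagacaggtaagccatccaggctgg

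Ets2 has 30 CG pairs, Flt1 29 and Myl6 15 among the promoters of low regions, while Oprl1 has 5, Krt75 has 8 and Scn11a has 3 among those of high regions. Tns2, with 2, and Kcnj6, with 30, do not follow that split. The values of these regions are given with the single regions further on.

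As a class, the telomere-proximal regions carried slightly more H3K9me2 than the rest of their chromosomes in both biopsies. With counts summed over all ends the excess was under 2%. In AAR they took 8.32% (lowest), 8.41% (median) and 8.42% (highest) of the counts on the 16 chromosomes in H3K9me2 libraries, against 8.20%, 8.28% and 8.34% in input libraries. The AAR groups overlapped through 1 library, the H3K9me2 library of mouse 17, which lay below the highest input library. In RM the shares were 8.37%, 8.42% and 8.45% in H3K9me2 libraries, against 8.25%, 8.29% and 8.32% in input libraries, and the RM groups did not overlap. As a log2 ratio of counts in members to counts in the rest, H3K9me2 exceeded input by 0.023 in AAR (-3.447 ± 0.0076 in H3K9me2 and -3.470 ± 0.0096 in input, SD, n = 6 each; exact two-sided permutation test, p adjusted over both biopsies = 0.0065), which is 1.016 times. In RM the difference was 0.024 (-3.444 ± 0.0065 in H3K9me2 and -3.468 ± 0.0045 in input, SD, n = 6 each; exact permutation test, adjusted p = 0.0043), or 1.017 times. All 6 mice had the higher ratio in H3K9me2 in both biopsies. The sign of this class difference hangs on the 5-Mb width. With the outer 2 Mb in its place it was -0.013 in AAR and -0.0097 in RM, and with the outer 10 Mb -0.0081 in AAR and -0.017 in RM, the last of which passed the exact permutation test (adjusted p = 0.0043, n = 6 each). With 1 chromosome left out at a time the 5-Mb difference stayed above 0, at 0.0078 to 0.049 in AAR and 0.0088 to 0.051 in RM. It was highest in both without chromosome 15. The call held in 13 of 16 such settings in AAR and in 15 in RM. In AAR it was lost without chromosome 5 (0.010), 7 (0.0099) or 8 (0.0078), and in RM without chromosome 5 (0.0099).

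**Figure D1:**
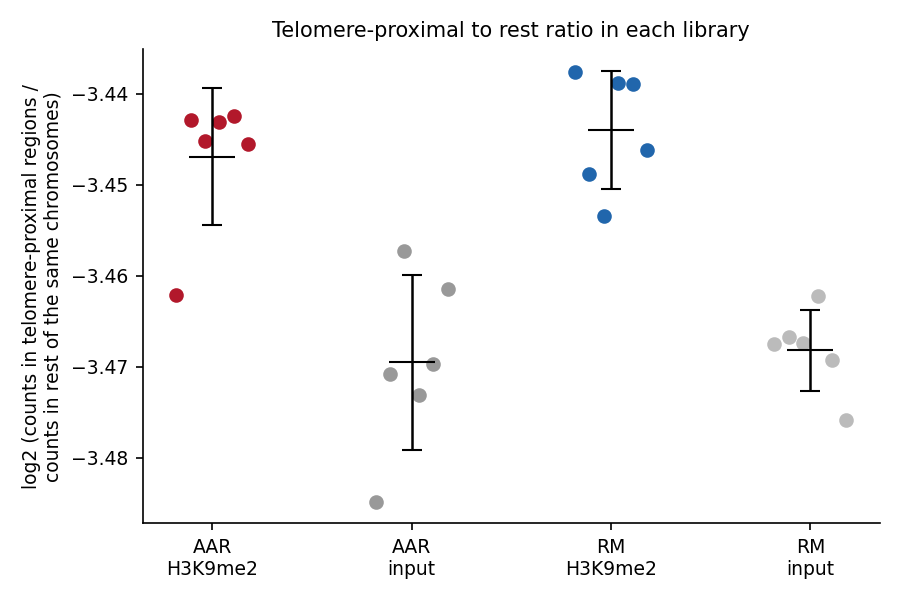
Log2 ratio of counts in telomere-proximal regions to counts in the rest of the same 16 chromosomes (vertical axis), 1 point a library, with the group mean and SD in black. The mean of the H3K9me2 libraries lies above that of the input libraries by 0.023 (AAR) and 0.024 (RM). The H3K9me2 library of AAR mouse 17 is the lowest of its group and lies below the highest AAR input library.

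Within the outer 5 Mb the mark did not grade evenly toward the tip. Here the log2 ratio of count shares, H3K9me2 over input, was taken for all 16 chromosomes together in bands of distance from the last listed base. The outermost 1 Mb, with 528 regions, was at 0.0081 ± 0.036 in AAR and 0.019 ± 0.025 in RM (mean ± SD, n = 6 mice), within the spread of the mice around 0. The band from 1 to 2 Mb was at -0.028 in AAR and -0.031 in RM. From 2 to 3 Mb the ratio was 0.072 in AAR and 0.079 in RM, and from 3 to 4 Mb 0.080 in AAR and 0.083 in RM, above 0 in 6 of 6 mice in each biopsy. The innermost band, from 4 to 5 Mb, was below 0 in 6 of 6 mice, at -0.049 in AAR and -0.058 in RM. Just beyond the set, the band from 5 to 10 Mb stood at -0.038 in AAR and -0.055 in RM. These bands are a description, with no test of their own.

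**Figure D2:**
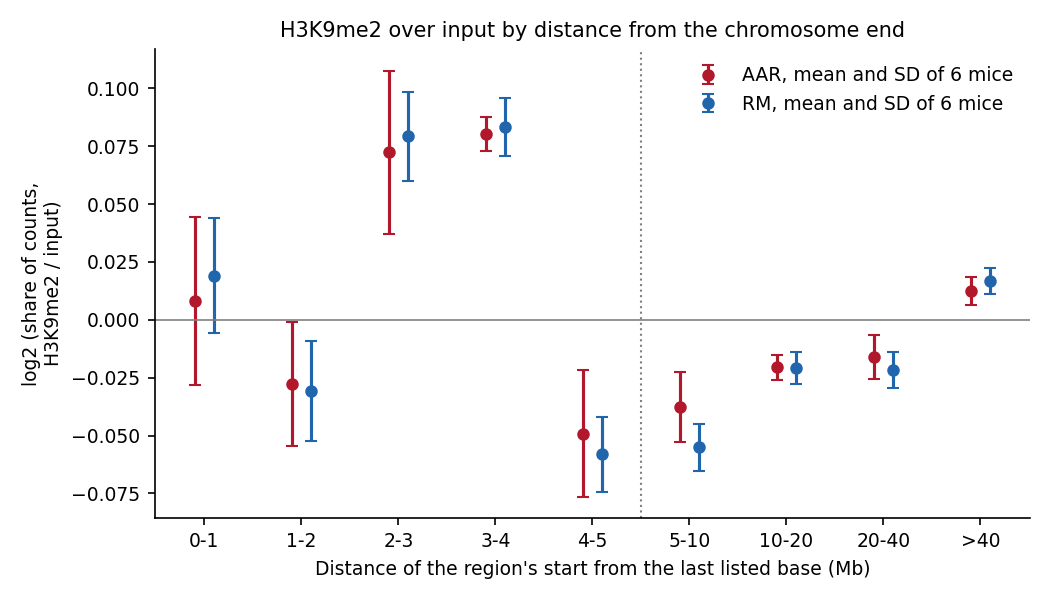
Log2 ratio of count shares, H3K9me2 over input (vertical axis), by distance of a region's start from the last listed base of its chromosome (horizontal axis, Mb), mean and SD of 6 mice for AAR and RM. The dotted line marks the 5-Mb limit, and the bands from 2 to 4 Mb are the highest on either side of it.

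The 818 regions within 5 Mb of the first listed base lie on the centromere side of the same chromosomes. Against them the telomere side was lower in H3K9me2 than in input in 6 of 6 mice in each biopsy. The unpaired test passed in RM alone. In AAR the log2 ratio of telomere-side to centromere-side counts was 2.296 ± 0.082 in H3K9me2 and 2.352 ± 0.053 in input, a difference of -0.055 with the same sign in 6 of 6 mice that did not pass (SD; exact permutation test, p = 0.20, n = 6 each). With each mouse as its own pair the AAR difference reached the smallest p that 64 sign changes allow (exact sign-flip test, p = 0.031, n = 6). In RM the ratio was 2.296 ± 0.040 in H3K9me2 and 2.363 ± 0.017 in input, a difference of -0.068 (SD; exact permutation test, adjusted p = 0.0087, n = 6 each; 6 of 6 mice).

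The small class value hides chromosome ends that differ widely from each other. Each end was set against the rest of its own chromosome, as the log2 ratio of member counts to rest counts in H3K9me2 minus that in input. Over the 16 ends this difference had an SD of 0.18 in AAR and 0.23 in RM. With each end weighted equally its mean was 0.086 in AAR and 0.11 in RM, above the class values from summed counts. In AAR 10 ends were higher, 3 lower and 3 not called, and in RM 11 were higher and 5 lower (exact permutation tests of 6 against 6 libraries, p adjusted over 32 ends and biopsies). The sign was the same in AAR and RM for 16 of 16 ends. The 16 ends are not unusual in this. Over 303 other windows of 5 Mb with at least 15 regions on the same chromosomes, compared the same way, the SD was 0.17 in AAR and 0.20 in RM, and the median 0.10 in AAR and 0.11 in RM, against medians of 0.088 in AAR and 0.10 in RM over the ends.

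The end of chromosome 10 was the lowest. It holds 234 members between 125860600 and 130146199 and 85 protein-coding genes, among them Cdk2 and Cdk4, cell cycle kinases, Erbb3, a receptor of the ErbB family, and Atp5b, the beta subunit of mitochondrial ATP synthase. Over the 6 mice the difference was -0.44 (lowest), -0.32 (median) and -0.18 (highest) in AAR, and -0.45, -0.31 and -0.26 in RM, below 0 in every mouse. The group means gave -0.31 in AAR and -0.33 in RM (exact permutation tests, adjusted p = 0.0031 each, n = 6 each). Start sites lay in 20.5% of its members against 17.0% of the rest of the chromosome, and only 3.85% of its members were intergenic. Without the regions that hold a start site the difference was -0.31 in AAR and -0.34 in RM.

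The end of chromosome 15 came next, at -0.16 in AAR and -0.16 in RM (exact permutation tests, adjusted p = 0.0031 each, n = 6 each). Its mice ran from -0.25 to -0.063 with a median of -0.16 in AAR, and from -0.25 to -0.094 with a median of -0.15 in RM. Its 448 members span the type II keratin genes, the Hoxc cluster and 106 protein-coding genes in all. Start sites lay in 16.3% of these members against 10.4% of the rest of that chromosome. Without the regions that hold a start site the difference was -0.15 in AAR and -0.15 in RM. The ends of chromosomes 4, 9 and 18 stood less far below 0. In AAR chromosome 9 was lower at -0.056, while chromosome 4 at -0.032 and chromosome 18 at -0.037 did not pass. In RM all 3 were lower, at -0.066 on chromosome 4, -0.055 on chromosome 9 and -0.070 on chromosome 18.

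The ends of chromosomes 3 and 12 were the highest, on few regions. Chromosome 3, with 17 members and 188 to 614 counts a library, was at 0.25, 0.45 and 0.54 (lowest, median and highest mouse) in AAR, and 0.34, 0.52 and 0.70 in RM. Chromosome 12, with 21 members and 155 to 623 counts a library, was at 0.14, 0.37 and 0.61 in AAR, and 0.41, 0.52 and 0.59 in RM. All 6 mice were above 0 at both ends in both biopsies, and the means were 0.41 and 0.38 in AAR, and 0.53 and 0.51 in RM. None of the 17 members of chromosome 3 holds a start site, and 23.5% are intergenic. The tested members of chromosome 3 include a region of Tnni3k, a kinase gene of heart muscle, and those of chromosome 12 include regions of the immunoglobulin heavy chain locus and of Ptprn2, an autoantigen of secretory granules.

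Between those extremes, 6 ends stood at 0.10 or more in both biopsies. Chromosomes 5, 6, 8 and 16 were at 0.20, 0.21, 0.20 and 0.17 in AAR, and at 0.24, 0.24, 0.21 and 0.25 in RM. Chromosome 17 was at 0.15 in AAR and 0.16 in RM, and chromosome 7 at 0.12 in AAR and 0.10 in RM. All 6 mice were above 0 at each of these ends. Chromosomes 1 and 2 were closer to the rest of their chromosome, at 0.041 and 0.055 in AAR and at 0.10 and 0.076 in RM, and chromosome 14 was at 0.023 in AAR, which did not pass, and 0.055 in RM, which did. Over the 15 ends whose promoters are in the table, the difference ran against the excess of start sites in members over the rest of the chromosome, with r = -0.50 in AAR and r = -0.47 in RM. The points share their libraries, so this is a description. Without the regions that hold a start site, 10 of these 15 ends were higher and 3 lower in AAR, and 10 higher and 4 lower in RM.

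**Figure D3:**
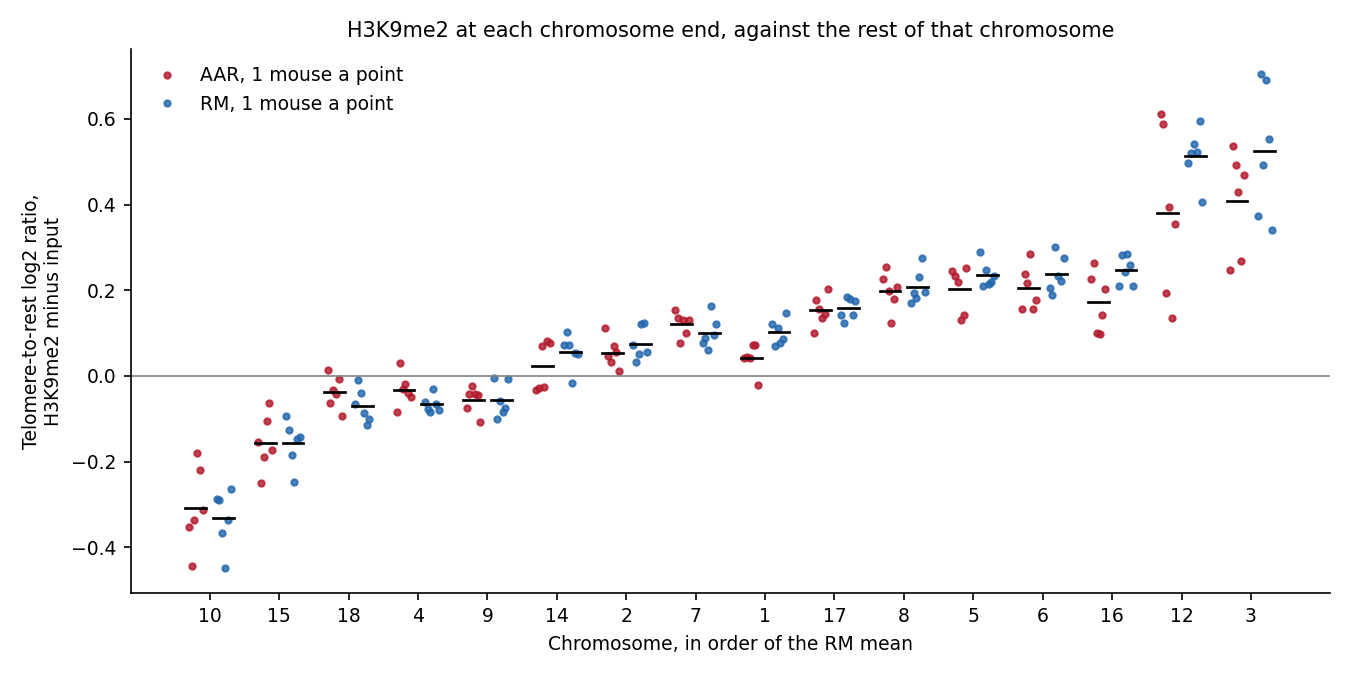
Telomere-to-rest log2 ratio of H3K9me2 minus that of input (vertical axis) at each chromosome end, 1 point a mouse, AAR in red left of RM in blue, with the mean as a black bar. The ends of chromosomes 10 and 15 lie below 0 in every mouse and those of chromosomes 3 and 12 above 0 in every mouse, in both biopsies.

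Windows of 1 Mb showed where along the ends the mark was low or high. Of the 61 windows with at least 10 regions, 20 were below 0 in AAR and 20 in RM, again as the log2 ratio of count shares over the 16 chromosomes. The lowest lay 1 to 2 Mb from the tip of chromosome 10, over 42 protein-coding genes with Cdk2, Erbb3 and Pmel among them, at -0.41 ± 0.12 in AAR and -0.44 ± 0.098 in RM (mean ± SD, n = 6 mice). The next lay 1 to 2 Mb from the tip of chromosome 15, over Rarg, a retinoic acid receptor, Sp7, an osteoblast factor, and Krt8, at -0.39 ± 0.14 in AAR and -0.41 ± 0.11 in RM. Both were below 0 in 6 of 6 mice. The window 2 to 3 Mb from the tip of chromosome 10, with Gli1 and Ddit3, stood at -0.33 in AAR and -0.36 in RM. The outermost 1 Mb of chromosome 4, with Agrn, Isg15 and Gnb1 among 43 protein-coding genes, stood at -0.17 in AAR and -0.27 in RM.

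The highest window lay 2 to 3 Mb from the tip of chromosome 2, whose single protein-coding gene is Cdh4, a neuronal cadherin. It stood at 0.59 ± 0.19 in AAR and 0.69 ± 0.16 in RM (mean ± SD, n = 6 mice), on 23 regions. The window 2 to 3 Mb from the tip of chromosome 12, over Ptprn2 and Rapgef5, was at 0.43 ± 0.26 in AAR and 0.55 ± 0.062 in RM, on 10 regions. The window 3 to 4 Mb from the tip of chromosome 6, over Itpr2, a calcium release channel, was at 0.33 in AAR and 0.43 in RM. The window 4 to 5 Mb from the tip of chromosome 17, over Abcg5 and Abcg8, a sterol transporter pair, was at 0.30 in AAR and 0.46 in RM, on 10 regions with 6 protein-coding genes. The window 2 to 3 Mb from the tip of chromosome 16, over the ETS factors Erg and Ets2 and the potassium channel genes Kcnj6 and Kcnj15, was at 0.33 in AAR and 0.41 in RM. The same chromosome could hold low and high windows, since on chromosome 2 the 2 outermost windows were slightly below 0 and the 2 next to them far above it.

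**Figure D4:**
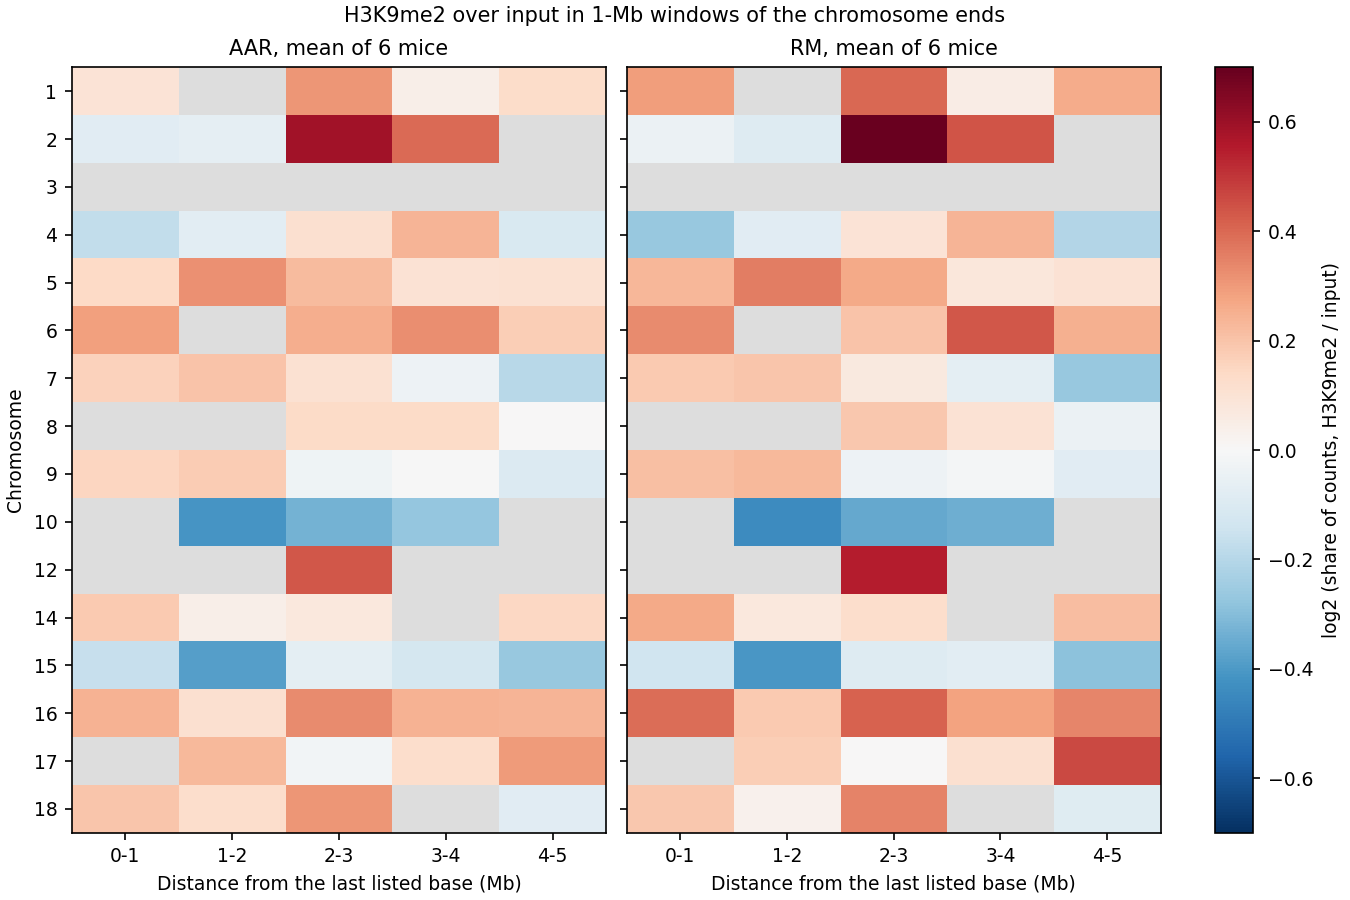
Mean log2 ratio of count shares, H3K9me2 over input, over 6 mice in 1-Mb windows of each chromosome end, by distance from the last listed base (horizontal axis, Mb) and chromosome (vertical axis), AAR left and RM right. Grey cells hold under 10 regions, and the scale is cut at -0.7 and 0.7. The 3 windows of chromosome 10 with at least 10 regions are below 0 and the window 2 to 3 Mb from the tip of chromosome 2 is the highest in both biopsies.

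Region by region, the members were called about as often as listed regions in general. In AAR 346 of the 2864 tested members (12.1%) had H3K9me2 above input and 300 (10.5%) below it at an edgeR FDR under 0.05, where 11.3% of all tested regions were higher and 12.3% lower. In RM 617 of 2848 (21.7%) were higher and 490 (17.2%) lower, where 20.5% of all tested regions were higher and 20.0% lower. In both biopsies 284 members were higher and 240 lower of 2821 tested in both (10.1% and 8.51%), where 9.38% and 10.4% of all regions were, and 0 members were called in opposite directions. Without mouse 19, 219 members were higher in AAR. The median log2 fold change of the members was 0.030 in AAR and 0.025 in RM, against 0.011 in AAR and 0.0087 in RM over all tested regions. The call rate of the members thus stands near that of the whole list.

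The calls were spread unevenly over positions relative to genes. In AAR 115 of 473 intergenic members were higher (24.3%) and 18 lower (3.81%), whereas among members near a gene end 86 of 1107 were higher (7.77%) and 212 lower (19.2%). Members that hold a start site were higher in 27 of 355 cases (7.61%) and lower in 117 (33.0%). In RM the same classes were higher in 194 of 473 intergenic members (41.0%), 141 of 1102 near a gene end (12.8%) and 32 of 352 with a start site (9.09%), and lower in 14 (2.96%), 320 (29.0%) and 162 (46.0%). The rest of the chromosomes had the same order of classes. With a start site, 33.7% of the regions in the rest were lower in AAR and 45.3% in RM. Of the intergenic regions in the rest, 24.5% were higher in AAR and 41.3% in RM.

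**Figure D5:**
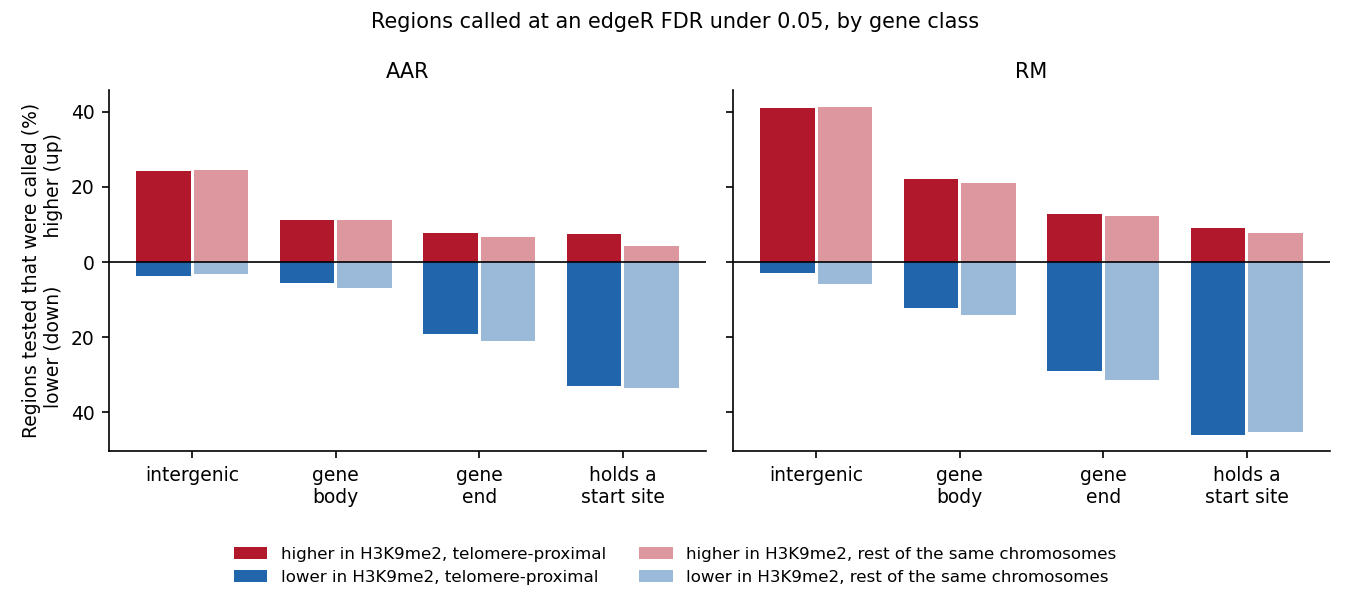
Share of tested regions called at an edgeR FDR under 0.05 (vertical axis, %), higher in H3K9me2 upward and lower downward, by position relative to genes, for telomere-proximal regions (full colour) beside the rest of the same chromosomes (pale), AAR left and RM right. Among intergenic members more are called higher than lower, and among members with a start site more are called lower than higher, in both biopsies and also in the rest.

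At most chromosome ends the calls leaned the way of the summed counts, which come from the same reads. Chromosome 18 was an exception, with 14 members higher and 9 lower in AAR, and 23 higher and 18 lower in RM. Its summed differences were -0.037 in AAR and -0.070 in RM. Chromosome 9 had 22 members higher and 27 lower in AAR. In RM it had 44 higher and 44 lower, against a summed difference of -0.055. At the end of chromosome 10, 3 members were higher and 51 lower of 178 tested in AAR, and 3 higher and 66 lower of 177 in RM. At the end of chromosome 15, 13 were higher and 69 lower of 355 in AAR, and 31 higher and 91 lower of 352 in RM. At the end of chromosome 16, 36 were higher and 6 lower of 139 in AAR, and 54 higher and 9 lower of 138 in RM. At the end of chromosome 3, 6 of 15 tested members were higher in AAR and 8 in RM, and at that of chromosome 12, 7 of 16 in AAR and 9 in RM, with 0 lower at either end (edgeR, FDR under 0.05). Over all tested regions 11.3% were higher and 12.3% lower in AAR, and 20.5% higher and 20.0% lower in RM.

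Called regions were ranked if they had at least the median count of all tested regions and the same sign in 6 of 6 mice. Those furthest below input in H3K9me2 lay mostly near the ends of genes. The fold changes compare H3K9me2 with input of the same biopsy and do not measure a change with preconditioning. Values are CPM, the counts of a region scaled to the library's total in the listed regions, given as the lowest, the median and the highest of 6 libraries. The region over the end of Atp5b and of Baz2a, a nucleolar remodelling subunit, at chr10:128091400-128095399, had 6.69, 11.3 and 15 CPM in H3K9me2 and 30.7, 36.8 and 45.6 CPM in input of AAR. In RM it had 5.81, 13.3 and 19.4 CPM in H3K9me2 and 32.7, 38.9 and 44.6 CPM in input. H3K9me2 and input did not overlap in either biopsy, and the log2 fold change was -1.66 ± 0.20 in AAR (SE, edgeR FDR = 1.95e-08) and -1.48 ± 0.18 in RM (FDR = 4.85e-12).

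Myl6 encodes a myosin light chain of nonmuscle and smooth muscle cells. The region over Myl6, Myl6b and the end of Smarcc2, at chr10:128490600-128495799, had 6.69, 9.0 and 12.5 CPM in H3K9me2 and 20.3, 24 and 36.7 CPM in input of AAR. In RM it had 3.10, 6.44 and 16 CPM in H3K9me2 and 20.9, 27.0 and 38.4 CPM in input. Again no H3K9me2 library reached an input library, and the fold change was -1.41 ± 0.24 in AAR (SE, edgeR FDR = 1.55e-05) and -1.88 ± 0.24 in RM (FDR = 8.64e-12).

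Flt1 encodes a receptor for vascular endothelial growth factor and is the single endothelial marker of the list used here with a member region. The region of its promoter shown above, at chr5:147723800-147726599, had 7.01, 10.4 and 20.1 CPM in H3K9me2 and 21.9, 27.8 and 32.7 CPM in input of AAR. In RM it had 4.51, 10.7 and 13.9 CPM in H3K9me2 and 27.9, 32.7 and 44.3 CPM in input. H3K9me2 was below input throughout, with -1.09 ± 0.22 in AAR (SE, edgeR FDR = 0.000230) and -1.75 ± 0.21 in RM (FDR = 2.85e-13). The 12 tested regions of Flt1 did not all lie on the same side of input. At chr5:147660800-147665399, inside the gene, the log2 fold change was 0.39 ± 0.14 in AAR (FDR = 0.0348) and 0.61 ± 0.13 in RM (FDR = 4.42e-05). At chr5:147727200-147731599, next to the promoter region, it was 0.51 ± 0.15 in AAR (FDR = 0.00898) and -0.051 ± 0.14 in RM, which did not pass (FDR = 0.799).

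Tns2, for tensin 2 of focal adhesions, and Rarg lie in the low window of chromosome 15. The Tns2 promoter region at chr15:102100800-102103999 had 5.93, 8.78 and 14 CPM in H3K9me2 and 18.5, 25.1 and 31.1 CPM in input of AAR. In RM it had 1.45, 4.44 and 7.13 CPM in H3K9me2 and 26.0, 28.6 and 32.5 CPM in input, with no overlap in either biopsy and fold changes of -1.41 ± 0.23 in AAR (SE, edgeR FDR = 1.10e-05) and -2.74 ± 0.27 in RM (FDR = 3.12e-18). The Rarg region at chr15:102244200-102247799 had 7.20, 11.9 and 20.1 CPM in H3K9me2 and 23.9, 32.1 and 40.6 CPM in input of AAR, against 6.77, 8.86 and 16.3 CPM in H3K9me2 and 27.1, 30.4 and 39.9 CPM in input of RM. Its fold changes were -1.25 ± 0.21 in AAR and -1.59 ± 0.21 in RM, and H3K9me2 lay below input in every library.

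The rule took other regions as furthest below input in AAR. Among them were those of Polr2l, an RNA polymerase subunit, with Tspan4 (-1.47), of Spryd3 and Tns2 (-1.46), and of Cd151, Cracr2b and Pnpla2 (-1.29). The remaining ones were those of Asic1 and Smarcd1 (-1.23), of Lama5, a laminin chain of basement membranes (-1.22), and of Klhl21 (-1.22). For all of these regions the same sign in 6 of 6 mice in AAR was a condition of the choice. All were lower in RM as well, at -0.81 to -1.51. In RM the set also held Cend1, Pidd1 and Slc25a22 (-0.88 in AAR and -1.35 in RM) and a second region of Cracr2b and Pnpla2 (-1.16 in AAR and -1.34 in RM). Ets2, whose promoter stands among those shown, had few counts but the same direction, with 2.97, 4.59 and 12.0 CPM in H3K9me2 and 10.1, 17.3 and 23.0 CPM in input of AAR, and 3.06, 4.43 and 6.24 CPM in H3K9me2 and 12.4, 15.1 and 23.6 CPM in input of RM. The groups overlapped in AAR and not in RM, and the fold change was -1.80 ± 0.31 in AAR and -1.81 ± 0.31 in RM (SE, edgeR).

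The regions furthest above input had smaller fold changes than those furthest below it, and lay in intergenic DNA and inside or beside genes. The region at the end of Muc5ac, which encodes a gel-forming mucin of airway and stomach, at chr7:141785800-141788199, had 28.8, 35.7 and 52.2 CPM in H3K9me2 and 14.5, 19.7 and 26.3 CPM in input of AAR. In RM it had 33.8, 36.8 and 59.5 CPM in H3K9me2 and 14.1, 19.5 and 25.4 CPM in input. The groups did not overlap, and the fold change was 0.92 ± 0.18 in AAR (SE, edgeR FDR = 0.000141) and 1.05 ± 0.16 in RM (FDR = 9.68e-09). The region furthest above input in RM by the same rule was intergenic, at chr2:179288200-179290599 in the high window of Cdh4. Its fold change was 0.76 ± 0.20 in AAR (SE, edgeR FDR = 0.00414) and 1.19 ± 0.16 in RM (FDR = 2.89e-10).

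The rest of the highest regions were of the same kind. In AAR they were 4 intergenic regions, 2 on chromosome 2 and 2 on chromosome 16 (0.87 to 0.90), a region in Gm6288 (0.87), one in Camta1 (0.86) and one in Pcca, a subunit of propionyl-CoA carboxylase (0.85), and all of them also passed in RM, at 0.64 to 1.01. By the RM values they included a region of Gm39116 (0.79 in AAR and 1.15 in RM), regions inside Kcnh1, a neuronal potassium channel gene (0.74 in AAR and 1.06 in RM), and Ptprn2 (0.76 in AAR and 1.01 in RM), and intergenic regions on chromosomes 18 (0.64 in AAR and 1.07 in RM) and 4 (0.50 in AAR and 1.05 in RM), all called in both. Of the promoter regions shown, that of Krt75, a keratin of the hair follicle, had 53.5, 69.6 and 77.4 CPM in H3K9me2 and 35.1, 41.5 and 47.4 CPM in input of AAR, and 42.8, 72.4 and 83.6 CPM in H3K9me2 and 37.7, 40.3 and 47.9 CPM in input of RM. H3K9me2 lay above input in AAR without overlap and overlapped with it in RM. Kcnj6, a neuronal potassium channel gene, was above input by 0.53 ± 0.16 in AAR and 0.76 ± 0.15 in RM. Scn11a, a sodium channel gene of sensory neurons, was above it by 0.69 ± 0.16 in AAR and 0.62 ± 0.15 in RM. Oprl1, the nociceptin receptor gene, was above it by 0.62 ± 0.19 in AAR and 0.67 ± 0.17 in RM (log2, SE, edgeR).

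The last tested region before each tip lay within 4 kb of the last listed base on 11 chromosomes, but 76.4 kb from it on chromosome 4, 210.4 kb on chromosome 1, and over 1 Mb from it on chromosomes 3, 10 and 12. In AAR it was higher in H3K9me2 than in input at 5 of the 16 ends and lower at 0, and in RM it was higher at 6 and lower at 1, where 11.3% of all tested regions were higher and 12.3% lower in AAR, and 20.5% higher and 20.0% lower in RM. On chromosome 15 the region at chr15:103935400-103938399, which ends at the last listed base, had 22.2, 28.8 and 64.8 CPM in H3K9me2 and 16.5, 22.0 and 23.3 CPM in input of AAR, and 21.9, 39.6 and 65.3 CPM in H3K9me2 and 17.1, 19.8 and 22.5 CPM in input of RM. The groups overlapped in both biopsies, and the fold change was 0.75 ± 0.20 in AAR (SE, edgeR FDR = 0.00467) and 0.98 ± 0.16 in RM (FDR = 1.94e-07). The outermost 1 Mb of chromosome 15, with 52 regions, was below 0 as a whole, at -0.16 in AAR and -0.14 in RM. The last regions of chromosomes 2 (near an end of Myt1 and of Pcmtd2), 12 (in Cdca7l) and 18 (intergenic) were higher in both biopsies. They stood at 0.70, 0.76 and 0.81 in AAR and 0.78, 1.02 and 0.72 in RM. The last region of chromosome 5, over the start of Stard13, stood at -0.68 in AAR, which did not pass. In RM it lay below input by 0.65 on the log2 scale.

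Gene lists chosen for heart tissue and for the mark reached few members. No gene of the cardiomyocyte, fibroblast, leukocyte, housekeeping or odorant receptor lists has a member region, and the counts, being of chromatin, do not show which cell types the biopsies held. Of the oxidative phosphorylation list, 4 of 6 tested regions were lower in AAR (Atp5b, Atp5g2 and Ndufa4l2) and 4 in RM (Atp5b and Ndufa4l2), and 0 were higher. The list of ribosomal protein genes, taken by prefix, had 3 of 20 regions lower and 0 higher in AAR, and 7 lower and 1 higher of 21 in RM. Of all tested regions, 12.3% were lower in AAR and 20.0% in RM, so the AAR count of the ribosomal list lies near that share. The higher one was in Rps6kc1, a kinase gene caught by the prefix, and the lower ones lay at Rpl21, Rpl22, Rpl41, Rps21 and Rps26. At Rpl41, chr10:128543800-128546999, H3K9me2 libraries of AAR had 7.20, 13.8 and 21.6 CPM against 22.3, 26.7 and 29.6 CPM in input, and the fold change was -0.82 ± 0.20 in AAR and -0.92 ± 0.19 in RM (SE, edgeR).

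Nr4a1, an immediate early nuclear receptor gene on chromosome 15, was lower in several regions. The one at chr15:101266600-101268599 had 0, 4.23 and 12.0 CPM in H3K9me2 and 14.6, 15.5 and 17.1 CPM in input of AAR. In RM it had 4.51, 5.40 and 10.2 CPM in H3K9me2 and 9.96, 14.5 and 16.5 CPM in input. AAR libraries did not overlap and RM libraries did, and the fold change was -1.73 ± 0.33 in AAR (SE, edgeR FDR = 9.84e-05) and -1.08 ± 0.28 in RM (FDR = 0.000882). In all, 3 regions of Nr4a1 were lower in AAR and 4 in RM, of 6 tested in its list, against 12.3% of all tested regions lower in AAR and 20.0% in RM, and Atf3, the other gene of the immediate early list with members, had none called.

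Zinc finger genes named Zfp had 7 genes with members. In AAR 7 of their 22 tested regions were lower and 0 higher, and in RM 11 of 21 were lower and 3 higher, the 3 all in Zfp407, where 12.3% of all tested regions were lower and 11.3% higher in AAR, and 20.0% lower and 20.5% higher in RM. Zfp740, at chr15:102203000-102206199, was lowest in AAR, with 4.80, 9.10 and 13.4 CPM in H3K9me2 and 22.5, 25.9 and 30.7 CPM in input, and a fold change of -1.52 ± 0.23 (SE, edgeR FDR = 1.54e-06), and of -1.04 ± 0.21 in RM. Of the writers, erasers and readers of H3K9 methylation, Prdm16, a transcription factor of brown fat and heart development, and Cbx5, the HP1 alpha gene, have members. Prdm16 had 2 regions higher and 1 lower in AAR and 8 higher and 2 lower in RM, of 40 tested in the list, and Cbx5 had none called. These counts do not exceed the shares of all tested regions given above and are no result about the list. The Prdm16 region that was lower in both biopsies, chr4:154634200-154639999, had a fold change of -0.58 ± 0.14 in AAR and -0.49 ± 0.13 in RM. Rtel1, a helicase that maintains telomeres, is the single telomere gene with members. Of its 6 tested regions 1 was lower in RM (-0.37 ± 0.12) and 0 were called in AAR, which is not above the share of all tested regions.

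Gene clusters near the tips were listed after the values had been seen. The imprinted cluster of distal chromosome 7 had 18 genes with members, and its genes went different ways. In AAR 10 of its 74 tested regions were higher, 9 in Kcnq1 and 1 at H19, and in RM 11 of 73 were higher, all in Kcnq1, a cardiac potassium channel gene whose body also holds the noncoding Kcnq1ot1. With 11.3% of all tested regions higher in AAR and 20.5% in RM, the count of higher regions in the cluster is near the share of all regions in AAR and below it in RM, and is no result about the cluster. At chr7:143329800-143336399, inside Kcnq1, H3K9me2 libraries had 75.1, 93.7 and 144 CPM in AAR and 88.0, 96.2 and 119 CPM in RM, against 42.8, 57.2 and 73.4 CPM in AAR input and 45.8, 55.2 and 71.6 CPM in RM input. H3K9me2 lay above input in every library, and the fold change was 0.82 ± 0.13 in AAR (SE, edgeR FDR = 5.57e-06) and 0.79 ± 0.10 in RM (FDR = 8.35e-11). The lower regions of the cluster, 4 in AAR and 13 in RM, lay at Cd81, Tspan32 and Osbpl5 in AAR. In RM they lay at Cars, Cd81, Cdkn1c, Igf2, Nap1l4, Osbpl5, Phlda2 and Tspan32, and in 1 region of Kcnq1. Of all tested regions, 12.3% were lower in AAR and 20.0% in RM. The counts of lower regions do not exceed these shares and are no result about the cluster either.

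The keratin list was taken by prefix, which caught Krtap5-1 on chromosome 7 beside the keratin genes of chromosome 15. Its regions were higher in 5 of 38 tested in AAR and 13 of 37 in RM, and lower in 2 in AAR and 4 in RM. Of all tested regions 11.3% were higher in AAR, which the keratin count lies near, and 20.5% in RM, and 12.3% were lower in AAR and 20.0% in RM. The region over Krt71, of the hair follicle sheath, was above input by 0.69 ± 0.13 in AAR and 0.62 ± 0.12 in RM. The lower regions were at Krt78 and, in RM, at Krt8, a keratin of simple epithelia. The Hoxc cluster beside them had 0 of 11 regions higher, with 2 lower in AAR and 1 in RM at Hoxc8 and Hoxc9. The 2 regions in the immunoglobulin heavy chain locus of chromosome 12 were higher in both biopsies, at chr12:114771200-114773399 by 0.72 ± 0.22 in AAR and 1.05 ± 0.18 in RM.

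Member regions overlap 19 miRNA genes in 22 regions, 16 of which were tested. In AAR 1 was higher and 4 lower, and in RM 1 was higher and 5 lower, where 11.3% of all tested regions were higher and 12.3% lower in AAR, and 20.5% higher and 20.0% lower in RM. The higher one, at chr4:156054000-156056599, holds the hairpins of Mir200a and Mir200b, an epithelial miRNA pair. It had 28.4, 36.0 and 41.5 CPM in H3K9me2 and 18.2, 20.7 and 27.0 CPM in input of AAR, and 27.9, 37.1 and 55.2 CPM in H3K9me2 and 21.3, 26.6 and 30.5 CPM in input of RM. H3K9me2 lay above input in every AAR library and overlapped with it in RM, and the fold change was 0.69 ± 0.17 in AAR (SE, edgeR FDR = 0.00169) and 0.58 ± 0.15 in RM (FDR = 0.000868). The region furthest below input was that of Mir8105 at chr10:128452800-128462399, with -0.93 ± 0.13 in AAR and -1.21 ± 0.12 in RM. Mir210, a miRNA induced by hypoxia, stood at -0.36 in AAR and -0.34 in RM, neither of which passed (edgeR FDR = 0.0868 in AAR and 0.0506 in RM). The mature sequences of these called genes are printed from RefSeq (GRCm38.p6) with the seed, bases 2 to 8, in capitals. The 5p arms of the pair share their seed.

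mmu-miR-200a-5p (chr4:156054949-156054970, minus strand): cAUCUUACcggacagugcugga
mmu-miR-200b-5p (chr4:156055721-156055742, minus strand): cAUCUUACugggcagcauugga
mmu-miR-200a-3p (chr4:156054911-156054932, minus strand): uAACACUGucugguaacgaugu
mmu-miR-200b-3p (chr4:156055685-156055706, minus strand): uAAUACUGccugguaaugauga
mmu-miR-8105 (chr10:128458732-128458753, plus strand): aGGCGACUggcgagacccgaag

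No difference between the biopsies was called in the telomere-proximal regions. Their ratio to the rest of the chromosomes, H3K9me2 over input, was 0.023 in AAR and 0.024 in RM, a difference of -0.0016 (exact permutation test, p = 0.68, n = 6 each). In H3K9me2 alone AAR minus RM was -0.0029 (p = 0.50) and in input alone -0.0013 (p = 0.77), both by exact permutation with n = 6 each. No chromosome end differed (smallest adjusted p = 0.10 over 16 ends, chromosome 1 at -0.060, exact permutation test, n = 6 each). With the 16 ends weighted equally in place of by counts, AAR minus RM was -0.026 (exact permutation test, p = 0.0065, n = 6 each), the one setting in which the biopsies parted.

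Region by region, edgeR called 0 of 2215 tested members in H3K9me2 of AAR over RM, with 91 at an unadjusted p under 0.05, and 0.0% of all tested regions. In input it called 0 of 2970, with 93 at an unadjusted p under 0.05, and in the input-corrected difference 0 of 2958, with 105, both against 0.0% of all regions. DESeq2 also called 0 members in each, with 28 at an unadjusted p under 0.05 in H3K9me2, 52 in input and 70 after input correction. The members nearest to a call in H3K9me2 were the end of Ski, a repressor of TGF-beta signalling, with 21.6, 34.1 and 48.5 CPM in AAR and 17.4, 21.0 and 29.5 CPM in RM (log2 0.69, unadjusted p = 0.000593, edgeR FDR = 0.999), and an intergenic region of chromosome 4 at chr4:154705600-154709799, with 28.2, 41.2 and 48.0 CPM in AAR and 49.9, 61.4 and 68.2 CPM in RM (log2 -0.55, unadjusted p = 0.000628, edgeR FDR = 0.999). The first overlapped between biopsies and the second did not. The other named regions of this contrast were at Fndc10 (0.54) and Mrpl23 (0.79), and inside Kcnq1 (-0.46) and at Sertad4 (-0.59), none past the threshold. After correction for input the nearest were Tns2 (1.34), Ctsd, a lysosomal protease gene (0.74), and Dock9 (0.78) above 0, and Cldn10 (-0.78), Sertad4 (-0.75) and Batf3 (-0.75) below it, with unadjusted p from 0.00111 to 0.00548 and none past the edgeR threshold.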

How the data were processed

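H3K9me2 ChIP-seq and input libraries of AAR and RM biopsies from 6 preconditioned mice (24 libraries) were read from the deposited tables. Per the labels' protocols, 25 mg of tissue gave chromatin, 5 µg of it entered a precipitation, and libraries of 10 ng DNA had 12 cycles of PCR and paired reads of 101 bases. The submitters' processing notes name Bowtie2 2.2.2, SICER 1.1 and edgeR with no roles, and build mm10. The deposited tables hold whole-number counts per region with a log2 fold change, a p-value and an FDR of the authors' own comparisons. At FDR under 0.05 in the authors' deposited tables, H3K9me2 was above input in 319 of the 3658 members in AAR and below it in 307. In RM it was above in 563 and below in 461. Over all 53386 listed regions it was above in 4162 and below in 5045 in AAR, and above in 7593 and below in 7630 in RM. The shares of the members lie near those of all listed regions.

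From the counts, edgeR 4.0.16 (R 4.3.3) was fitted to all listed regions with TMM scaling, the filterByExpr filter and the quasi-likelihood test, with Benjamini-Hochberg adjustment over all tested regions and a threshold of 0.05. CPM are counts over a library's total in the listed regions, and no library-wide depth was used. Summed counts were compared by exact two-sided permutation tests over 924 relabellings, whose smallest p is 0.00216, and pairs by 64 sign changes, whose smallest p is 0.0312. P-values were adjusted over both biopsies, or over the chromosome ends and biopsies. The main tests treat the libraries of a comparison as unpaired, so their p-values measure the spread between libraries and not that of the differences within mice. PCR duplicates cannot be told from separate fragments in these counts. The annotation gave gene spans without strand, so regions near either end of a gene form 1 class, where a class of start sites had been planned, and start-site values leave chromosome 18 out. Overlapping listed regions share reads.

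The same mouse number stands in all 4 groups, so the libraries pair by animal. Between H3K9me2 and input, deviations of same-numbered libraries correlated at -0.0018 to 0.12 in AAR and 0.0073 to 0.057 in RM. Between AAR and RM they correlated at -0.13 to 0.039 in H3K9me2 and -0.066 to 0.037 in input. These correlations do not cover the summed ratios, where pairing by mouse changed the result of the AAR telomere-to-centromere ratio. The main fits carry no block. Members and lists were chosen with earlier results of these data known, and the imprinted, keratin, Hoxc and immunoglobulin lists, the miRNAs, the 1-Mb windows and the printed promoters were chosen after these values were seen. Named regions are the 8 largest fold changes per direction among called members at or above the median count with the same sign in 6 of 6 mice, the 3 smallest p where none was called, the last tested region of each end, and up to 4 called regions per gene list. Alternatives were other scalings, filters and tools (DESeq2 1.42.0), other window widths, stand-alone regions, and single mice, sexes and chromosomes left out, of which the chromosomes and the set without start sites were added after the data had been seen. Scripts were tested on simulated data.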

Additional observations from a re-analysis of the deposited data

Results flagged for a closer look

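Of 40 groups of 6 values examined, 2 held a value far from the others, and chance flags about 1 in 20 groups. The H3K9me2 library of AAR mouse 17 had a log2 ratio of telomere-proximal counts to counts in the rest of -3.46, below the other 5 AAR H3K9me2 libraries. The AAR input library of mouse 17 was also the lowest of its group, at -3.48. Its difference between H3K9me2 and input was 0.023, against 0.023 in the AAR group means. At the end of chromosome 1, AAR mouse 30 had a telomere-to-rest difference between H3K9me2 and input of -0.020, the only mouse below 0 there. The cause was not tested for either value.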

How the results depend on the processing

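The sign of the class difference between H3K9me2 and input depends on the width taken as telomere-proximal. At 2 Mb it was -0.013 in AAR and -0.0097 in RM, and at 10 Mb -0.0081 in AAR and -0.017 in RM. Female mice alone gave 0.022 in AAR and 0.026 in RM, and male mice alone 0.023 in both, designs of 3 against 3 that cannot go below p = 0.1 in an exact test. The AAR call was lost without chromosome 5 (0.010), 7 (0.0099) or 8 (0.0078), and the RM call without chromosome 5 (0.0099). The difference between biopsies (AAR minus RM) was 0.0089 at 10 Mb, -0.026 with equal weights, 0.00045 in males and -0.0039 to 0.00082 with 1 mouse left out. In H3K9me2 alone it was 0.0019 at 10 Mb, 0.000088 in males and -0.0052 to 0.0014 with 1 mouse left out, and in input alone 0.00017 at 2 Mb, 0.016 with equal weights and -0.0045 to 0.0018 with 1 mouse left out. The telomere-to-centromere ratio in AAR passed at 10 Mb (-0.097) and with the replicate block (-0.055, exact sign-flip p = 0.031, n = 6), and in RM it did not pass at 2 Mb (-0.038), with equal weights (-0.047), in females (-0.061) or in males (-0.074). At 2 Mb 5 ends were higher in AAR. The sign turned at 2 Mb on chromosome 2 (-0.062 in AAR, -0.056 in RM), 9 (0.12 in AAR, 0.17 in RM) and 18 (0.075 in AAR, 0.0025 in RM), and among stand-alone regions on chromosome 14 in AAR (-0.0074). Members called higher in AAR numbered 163 at an FDR of 0.01, 102 at 2 Mb, 598 at 10 Mb and 219 to 347 with 1 mouse left out, 219 without mouse 19, and members called lower 171, 126 and 611 at those first 3 settings. In RM 212 were higher and 189 lower at 2 Mb, and 1037 and 1029 at 10 Mb. Counts at 2 and 10 Mb change with the number of regions taken. With the replicate block 404 members were higher and 327 lower in AAR, and 626 and 496 in RM, and the ends called higher and lower numbered 9 and 3 in AAR, and 10 and 5 in RM. DESeq2 gave 258 and 208 in AAR, and 511 and 372 in RM. For the other settings the causes were not tested. Few counts at the ends of chromosomes 3 and 12 limit their precision.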
